A study of Danio rerio with 9 samples.

Results

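The diploid zebrafish embryo 3 hours after fertilization was described from the 3 libraries whose labelled ploidy is Diploid, out of 9 libraries in all. Diploids served as the controls in work on how cell size bears on gastrulation. They are set here beside 3 haploid and 3 tetraploid libraries, which were made by a published procedure that the labels cite. Every group, diploids included, is labelled as a cross of TJH females with Tu males, and the source is given as embryos 3 hours after fertilization. Total RNA was extracted with Trizol, and samples with an RNA integrity number of at least 9 were used. The labels do not give the number of embryos pooled or say whether the 3 diploid samples came from separate clutches, so the spread between them may be technical. The libraries are called diploid replicates 1, 2 and 3, numbers that name them and do not pair them with other groups.

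The early zebrafish embryo runs on RNA and protein that the mother loaded into the egg. Cleavage divisions are fast and nearly synchronous, and the genome is largely silent until the mid-blastula transition, when maternal factors such as Nanog, Pou5f3 and Sox19b open it for transcription. The first zygotic transcripts then include regulators of the germ layers, of the enveloping layer that covers the embryo and of the yolk syncytial layer beneath it, while maternal messages begin to be degraded. A library taken near this transition therefore holds a large maternal store and a small zygotic addition.

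Each library table lists 30702 loci of genome build GRCz10 with a value in FPKM, the mapped fragments normalized to transcript length and to the mapped total of the library. The locus numbers rise along each chromosome, restart once and rise again. Of the 15165 loci in the first of these runs, 38.9% reached a diploid mean FPKM of 1. Of the 15537 in the second run, 0.303% did, and the whole second run held 0.0938% of the summed FPKM. Second-run loci below a mean of 1 over the 9 libraries were therefore counted as unmeasured, 15493 of them, which left 15204 measured loci after 5 with a failed estimate were set aside. Well-known maternal genes are among the unmeasured ones, including pou5f3, sox19b, ccnb1, dazl and nanos3. Shares below are shares of what was measured, and the low values of those genes say nothing about the embryo. A failed estimate removed cirbpa, which encodes a cold-inducible RNA-binding protein. On the scaled values described below, cirbpa stood at 574, 682 and 648 in diploid replicates 1, 2 and 3, a level of the upper ranks.

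Values were scaled between libraries by median-of-ratios factors and are given as scaled FPKM, with the SD over 3 libraries where a ± follows. The 3 diploid libraries had 5860, 5818 and 5850 measured loci at or above 1, and the other 6 libraries had 5580 to 5837. Read depth was not given. The width of the deposited intervals at the median locus above 1 equalled the counting error of 260, 332 and 341 fragments in diploid replicates 1, 2 and 3. Such widths do not measure depth or reads. At like levels in replicate 1, hnrnpa0l had the width of 33139 fragments and hnrnpabb that of 3053. Over the 5871 loci with a mean of at least 1 over the 9 libraries, Pearson correlations of log2(scaled FPKM + 1) between diploid libraries were 0.967 to 0.972, and those of diploid libraries with the other 6 were 0.920 to 0.985. Those correlations describe shared gene content across loci and were not tested. Tetraploid replicate 3 stood apart, and without it the second range was 0.954 to 0.985.

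The transcriptome was broad, with a steep top. By the mean of the 3 diploid libraries, 5898 loci reached a scaled FPKM of 1, 3188 reached 10, 448 reached 100 and 17 reached 1000. Of these, 5440 were at or above 1 in all 3 libraries. A further 374 loci reached 1 in 2 libraries and 460 in a single library, and 5204 measured loci were listed at 0 in all 3. Just inside the level of 1 lay creld1b at 0.302, 2.05 and 0.652, and just outside lay lysmd4 at 0.834, 0.935 and 1.23 in replicates 1, 2 and 3. Membership near the boundary was thus decided by single libraries. The median of the 5898 loci was 11.9. The 233 most abundant loci held 50% of the summed FPKM and 2200 held 90%. Without the mitochondrial chromosome, 434 nuclear loci held 50% and 2479 held 90%. Diploid replicate 2 was the most concentrated of the 3 libraries. Its most abundant 195 loci held 50%, against 252 in replicate 1 and 250 in replicate 3.

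**Figure D1:**
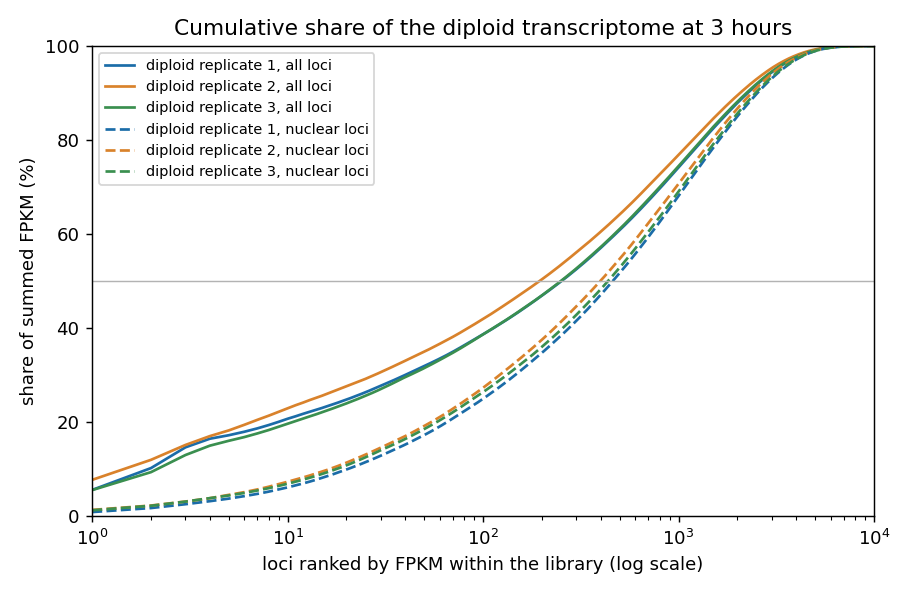
Cumulative share of summed FPKM (vertical axis, percent) over measured loci ranked from the most abundant within each library (horizontal axis, log scale), for the 3 diploid libraries. Solid lines include the mitochondrial chromosome and dashed lines leave it out; replicate 2 lies above the other 2 and crosses 50% at 195 loci, against 252 and 250.

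Loci of the mitochondrial genome took 19.7%, 21.7% and 18.3% of the summed FPKM in diploid replicates 1, 2 and 3. The other 6 libraries spanned 14.8% to 26.8%, so all 3 diploids lay within their range. Mitochondrial transcripts in the early embryo come from the large maternal stock of mitochondria in the egg. The 4 leading mitochondrial loci each exceeded every nuclear locus by their means. The locus that joins mt-atp6, mt-atp8 and mt-co3 (MT, 8894 to 10589), which encode 2 ATP synthase subunits and cytochrome oxidase subunit III, had 14258, 21836 and 14275 scaled FPKM. The neighbouring mt-co2 (8130 to 8820) had 11229, 12013 and 9323, and mt-co1 (6425 to 7975) had 11832, 8906 and 9794. These encode the other core subunits of cytochrome oxidase, and mt-co1 was highest in replicate 1 where the joint locus was highest in replicate 2.

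Cytochrome b, mt-cyb (15308 to 16448), averaged 5028 ± 328 scaled FPKM (SD, n = 3). The subunits of complex I were lower, with 2409 ± 820 at the mt-nd3 locus, 2382 ± 905 at the mt-nd2 locus, 1982 ± 444 at the joint mt-nd4 and mt-nd4l locus, 1663 ± 612 at mt-nd1 and 449 ± 107 at mt-nd5 (SD, n = 3 each). The order cytochrome oxidase, cytochrome b, complex I held in every diploid library. mt-nd6 lies in the second run and was unmeasured. Of the 12 mitochondrial loci at or above 1, 10 were highest in diploid replicate 2. A locus of 77 bases, AC024175.19, was listed at 0 in replicates 1 and 2 and at 643 in replicate 3, where its interval equalled the counting error of 1 fragment.

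Ranked by mean scaled FPKM, the 20 most abundant nuclear loci were led by cldnd, which encodes a claudin of tight junctions. It lies on chromosome 21 at 25740820 to 25741596 and had 1662, 2983 and 2663 scaled FPKM in diploid replicates 1, 2 and 3. Replicate 1 was the low library, where cldnd ranked behind hnrnpa0l and hnrnpabb. Those 2 genes encode heterogeneous nuclear ribonucleoproteins, which package nascent and stored RNA. hnrnpa0l (chromosome 14, 38509118 to 38510619) had 1827, 2057 and 2012, and hnrnpabb (chromosome 21, 3013302 to 3020566) had 1748, 1879 and 1854. Both varied little, and their 3 values did not overlap with those of ccnb2, the next in order.

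The cell division genes of the top 20 were ccnb2 and gmnn. ccnb2 (chromosome 7, 30355228 to 30359969), the mitotic cyclin B2, had 1322, 1565 and 1522 scaled FPKM. gmnn (chromosome 19, 31998028 to 32140417) encodes geminin, which holds back re-licensing of replicated DNA, and had 977, 796 and 700. The listed span of gmnn is 142 kilobases and overlaps a second-run locus, so other transcription units may share its reads. ctsla (1195 ± 111), a cathepsin L protease of lysosomes, was the fifth in rank. Like gmnn, the ctsla, siva1 and GTSF1 loci of the top 20 overlap a second-run locus.

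Protein synthesis was represented near the top by RPL41, rpl12 and eef1a1l2. RPL41 (chromosome 23, 25378890 to 25380062) had 959, 1546 and 1037 scaled FPKM, and rpl12 (chromosome 5, 32282535 to 32286867) had 886, 1270 and 871. Both encode proteins of the large ribosomal subunit and both were high in replicate 2. eef1a1l2, an elongation factor that brings aminoacyl-tRNA to the ribosome, averaged 1149 ± 66.2 (SD, n = 3). nme2b.1, a nucleoside diphosphate kinase, was also high in replicate 2, with 692, 1268 and 626 in replicates 1, 2 and 3.

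Chromatin genes were h3f3d (1037 ± 72.1), which encodes the replacement histone H3.3, and the pair h2afva (848 ± 78.6) and h2afvb (817 ± 65.5), which encode the variant H2A.Z (SD, n = 3 each). nanog (chromosome 24, 12689785 to 12694862), the homeodomain activator of the zygotic genome, was twelfth with 847, 859 and 958 scaled FPKM. The other loci of the top 20 were siva1, cth1, mkrn4, alyref, hspa8 and GTSF1. cth1 encodes a CCCH zinc finger protein, alyref an mRNA export adaptor and hspa8 the constitutive Hsc70 chaperone. mkrn4 (873 ± 18.6), a makorin RING finger gene, was the steadiest of the 20. Neighbouring ranks from siva1 (965 ± 152) down to h2afvb did not separate beyond their SDs.

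The order of ranks was stable between libraries. Of the 10 most abundant nuclear loci of each library, 8 were shared by all 3, and 18 of the top 20, 86 of the top 100, 435 of the top 500 and 891 of the top 1000 were. In the authors' deposited table of pooled diploid values, all 20 of these nuclear loci were among its top 20, and 98 of the top 100 were shared. In the first of 2 such tables, values ran 2.33 times higher at the median locus. Those tables pool the diploid group described here, so the shared ranks are no independent check.

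**Figure D2:**
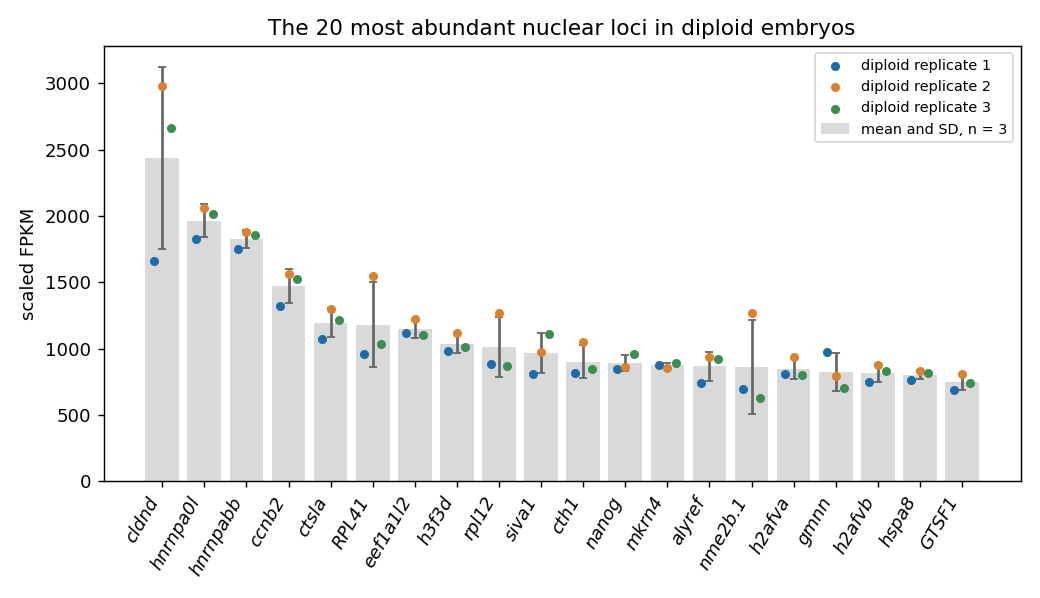
Scaled FPKM (vertical axis) of the 20 most abundant nuclear loci, ordered by mean, in the 3 diploid libraries. Bars are means with SD over 3 libraries and points are single libraries; cldnd ranges from 1662 to 2983, and RPL41, rpl12 and nme2b.1 are highest in replicate 2.

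Measured loci were sorted by symbol into 29 classes, of which 26 are functional and together took 59.3% of the summed FPKM. Named genes outside these classes took 33.9%, loci with only a clone-based or placeholder symbol took 6.72%, and small noncoding RNA genes took 0.0854%. The largest nuclear classes were cytosolic ribosomal proteins at 3.76%, spliceosome components at 3.33%, cell cycle and mitosis at 3.08%, chromatin and general transcription at 2.94%, membrane traffic at 2.68% and hnRNP and Y-box proteins at 2.67%. For most classes about as many members lie in the unmeasured run as in the measured one, so these shares describe the measured members. Classes also differed in how many of their measured loci reached a scaled FPKM of 1, where the figure over all measured loci was 38.8%. It was 100% of 44 ribosomal protein loci, 98.3% of spliceosome loci, 86.1% of chromatin loci and 25.7% of loci of developmental transcription factors.

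Within the RNA-handling classes, alyref, snrpd3 and magoh led the spliceosome list with 867 ± 108, 706 ± 49.8 and 489 ± 25.5 scaled FPKM (SD, n = 3 each). snrpd3 encodes a core Sm protein of the snRNPs and magoh a subunit of the exon junction complex. The hnRNP class was steep, with 646 ± 38.0 for hnrnpaba and 690 ± 43.5 for hnrnpa1b below its 2 leaders. Of 27 hnRNP and Y-box loci, 5 were among the 100 most abundant nuclear loci, as were 7 of 59 spliceosome loci and 12 of 44 ribosomal protein loci, against 1.70% of all nuclear loci at or above 1. The class of mRNA decay and translational control was led by lsm14b (393 ± 70.5) and lsm14aa (135 ± 9.71), whose proteins belong to RNA granules.

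The division classes were deep as well as abundant. Below ccnb2, the cell cycle class was led by ccng1 (660 ± 84.4), a cyclin G, and tpx2 (657 ± 55.6), a spindle assembly factor that activates Aurora A. Cyclin E1, ccne1, which drives S phase entry, varied little at 428, 418 and 407 in diploid replicates 1, 2 and 3. The replication class followed gmnn with orc6 (384 ± 25.5), a subunit of the origin recognition complex, and rpa3 (296 ± 30.5), a subunit of the single-strand DNA-binding factor RPA. cdt1, the licensing factor that geminin binds, was at 275, 224 and 272, well below gmnn in every library. The cytoskeleton class was led by the actin-severing cofilins cfl1 (372 ± 57.8) and cfl1l (358 ± 36.3) and the membrane-actin linker marcksb (361 ± 14.0).

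In the chromatin class, setd8b and setd8a, which encode H4K20 methyltransferases, averaged 331 ± 2.86 and 221 ± 21.1 scaled FPKM, and the deacetylase gene hdac1 averaged 326 ± 4.82 (SD, n = 3 each). Proteasome and ubiquitin genes took 2.23%, with ubc, a polyubiquitin gene, at 359 ± 38.2. Membrane traffic was led by sec61b (398 ± 63.4), a subunit of the endoplasmic reticulum translocon, and lysosome and autophagy genes after ctsla by ctss2.1 (455 ± 42.0) and psap (418 ± 31.7). A further lysosomal protease, ctsba, stood at 481 and 520 in replicates 1 and 2 and at 146 in replicate 3.

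Nuclear genes of oxidative phosphorylation took 1.08% of the summed FPKM, against 19.9% for the mitochondrial genome. atp5a1 and atp5b, the catalytic-head subunits of ATP synthase, averaged 219 ± 16.2 and 175 ± 13.0 scaled FPKM. Glycolysis and citric acid cycle genes took 0.356% and were led by tpi1b (116 ± 14.7), triose phosphate isomerase. None of the 25 glycolysis loci, 70 nuclear oxidative phosphorylation loci and 35 mitochondrial ribosomal protein loci at or above 1 was among the 100 most abundant nuclear loci. Solute carriers and ATPase pumps took 1.19%, with slc37a2, a sugar phosphate exchanger, at 218 ± 20.1. Signalling and patterning genes took 1.30%, led by the 14-3-3 genes ywhae1 (294 ± 9.05) and ywhaqa (174 ± 4.43) and the phosphatase subunit ppp4r2b (177 ± 3.03).

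**Figure D3:**
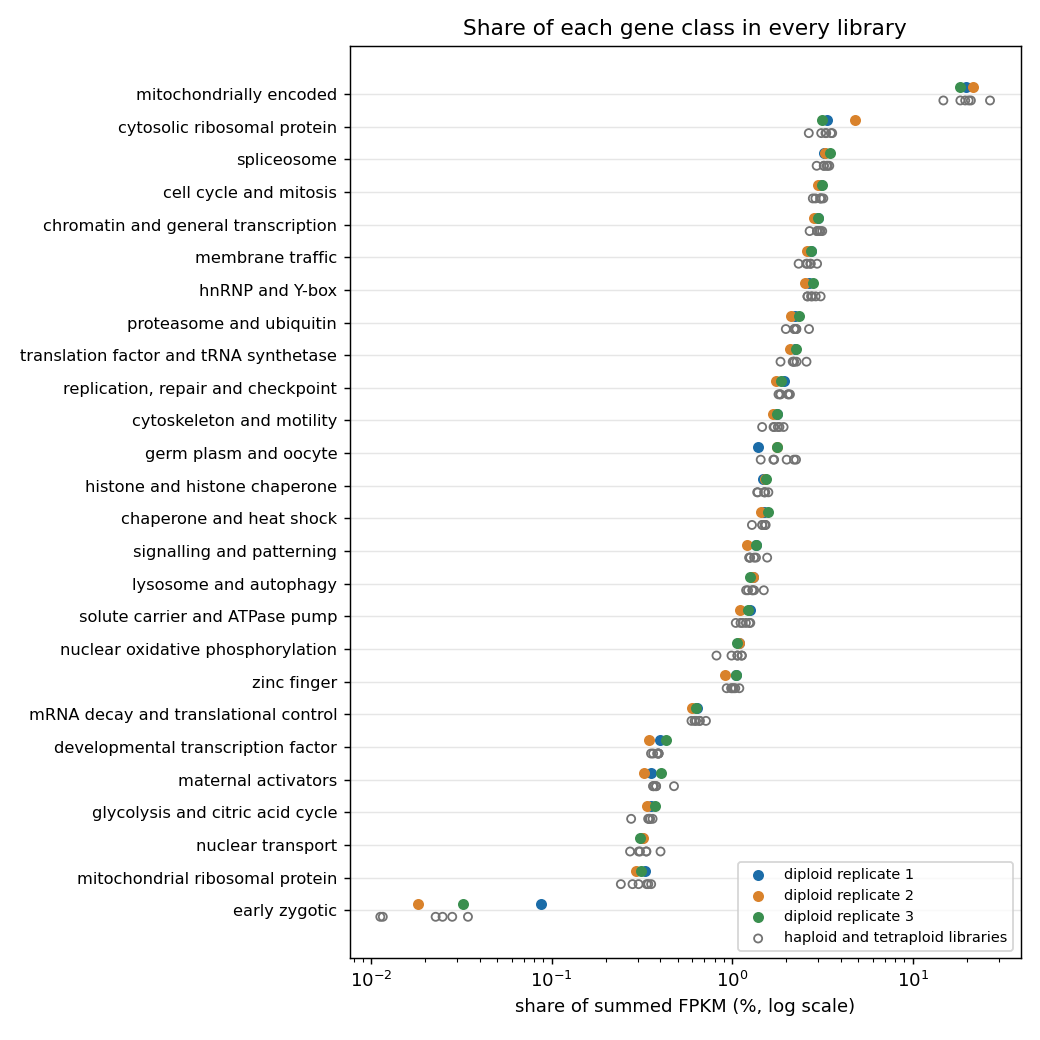
Share of summed FPKM (horizontal axis, percent, log scale) of 26 gene classes, with the 3 diploid libraries above and the 6 haploid and tetraploid libraries below in each row. Points overlap in most rows; diploid replicate 2 stands at 4.78% for cytosolic ribosomal proteins and diploid replicate 1 at 0.0879% for early zygotic genes.

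Maternal germ plasm and oocyte genes took 1.40%, 1.77% and 1.76% of the summed FPKM in diploid replicates 1, 2 and 3, and averaged 1.64%, of which cldnd alone made up 0.921%. The list names 50 genes, of which 18 were measured, 22 lie unmeasured in the second run and 10 are not listed under those symbols. buc, which encodes Bucky ball, the organizer of germ plasm, varied little at 377, 347 and 359 scaled FPKM. ddx4, the Vasa RNA helicase of germ cells, had 100, 88.1 and 102, and the Tudor domain genes tdrd7a, tdrd6 and tdrd9 averaged 56.2 ± 2.25, 23.5 ± 1.24 and 14.7 ± 2.66 (SD, n = 3 each). The measured germ plasm components thus spanned levels from 361 ± 14.9 for buc to 14.7 ± 2.66 for tdrd9.

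btg4, an adaptor that recruits the deadenylase to maternal messages in mouse eggs, had 271, 200 and 204 scaled FPKM and was high in replicate 1. npm2a, a nucleoplasmin, averaged 46.9 ± 4.52. Egg coat genes remained detectable. zp3a.2, zp3b and zp3a.1 averaged 55.6 ± 3.11, 54.1 ± 9.12 and 46.2 ± 5.58 (SD, n = 3 each), while zp2.2, zp2.5, zp2.1, zp2.3 and zp2.6 lay between 0.912 and 10.3. The tandem zp2 copies are alike in sequence, and reads may have been split among them. lhx8a, an oocyte transcription factor, averaged 11.8 ± 0.721. Of 6 markers of the ovarian follicle, the 3 measured, foxl2, star and gsdf, summed to at most 0.111 in any diploid library.

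Of 15 listed maternal activators of the zygotic genome, 4 were measured. nanog stood far above mycb and crebbpa. mycb, a Myc factor, had 27.5, 35.9 and 40.6 scaled FPKM in diploid replicates 1, 2 and 3, and crebbpa, a histone acetyltransferase, had 10.2, 7.52 and 9.24. In the class of developmental transcription factors the most abundant were otx1b (129 ± 6.54), a head-type homeodomain gene, and nfyba (117 ± 14.1) and nfyc (113 ± 11.2), subunits of the CCAAT-binding factor NF-Y.

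Early zygotic genes were low and were the class that varied most. They took 0.0879%, 0.0182% and 0.0322% of the summed FPKM in diploid replicates 1, 2 and 3, a 4.83-fold range, and 0.0113% to 0.0344% in the other 6 libraries. Replicate 1 lay above all 8 other libraries. Of 40 listed genes, 16 were measured, 21 lie unmeasured in the second run, including vox, vent, dharma, tbx16 and sox19a, and 3 are not listed under those symbols. The 13 measured genes with a mean of at least 1 are shown in the plot of early zygotic genes. In such bulk samples, fewer cells of a type and less RNA per cell cannot be told apart.

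klf17, a Krüppel-like factor of the enveloping layer and hatching gland, was the most abundant of them, with 60.3, 10.4 and 21.7 scaled FPKM in diploid replicates 1, 2 and 3. It had 18.4, 0.968 and 1.89 in haploid replicates 1, 2 and 3 and 17.0, 9.57 and 21.0 in tetraploid replicates 1, 2 and 3. Diploid replicate 1 was thus highest of the 9. Diploid replicate 3 lay just above the highest tetraploid library, and diploid replicate 2 lay among the haploid and tetraploid libraries. irx7, an Iroquois homeodomain gene, had 40.2, 3.38 and 8.37 in diploids, against 0.177 to 10.2 in the other 6 libraries. blf, a zinc finger regulator, had 27.1, 4.95 and 5.49, and her5, a Hairy-related repressor, had 20.4, 1.02 and 4.67. The same order, replicate 1 high, replicate 3 next and replicate 2 low, held for each of these 4.

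Other regulators followed it, among them genes of the extraembryonic layers. grhl3, a Grainyhead factor of surface epithelium, had 13.3, 0.447 and 1.29 scaled FPKM, and mxtx2, the homeodomain gene that specifies the yolk syncytial layer, had 10.6, 1.49 and 3.04. The receptor gene aplnrb, which binds Apela during gastrulation movements, had 10.5, 0.467 and 1.17. noto, the notochord homeodomain gene, had 5.10, 0.0682 and 0.547, and the ligand gene bmp2b had 2.91, 0.0298 and 0.121. In replicate 2, the values of noto and bmp2b rest on intervals as wide as those of about 1 fragment.

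wnt8a and bambia did not follow. The wnt8a locus, which carries a second symbol and encodes a Wnt ligand of the margin, had 10.9, 13.0 and 11.9 scaled FPKM, and bambia, a decoy receptor of BMP signalling, had 8.70, 10.5 and 16.4. cxcr4a, a chemokine receptor, had 6.63, 3.34 and 5.74, and zic2b 3.77, 1.90 and 0.915. In all, 11 of the 13 genes were highest in diploid replicate 1, where 31.6% of all 5898 loci were. The filter on the diploid mean favours the high library in this count. noto and bmp2b were below 1 in replicates 2 and 3, so passing the filter fixed their place in it. aplnrb and grhl3 were below 1 in replicate 2 and little above 1 in replicate 3. Markers of the enveloping layer summed to 93.4, 36.5 and 47.5 in diploid replicates 1, 2 and 3 and to 31.1 to 43.0 in the other 6 libraries. Of the 13 markers, 5 were measured, of which klf17, grhl3 and krt18 were highest in replicate 1 and evpla was at 0. Markers of the yolk syncytial layer summed to 20.2, 2.71 and 3.91 in diploids and to 0.315 to 6.16 in the others, with mxtx2 and apoeb as the 2 of 5 measured markers above a mean of 1, of 11 listed. klf17, grhl3, krt18 and mxtx2 are also on the early zygotic list, so both sums partly repeat the class values. The part of these layers, or of small differences in the stage reached, in the class values was not tested.

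**Figure D4:**
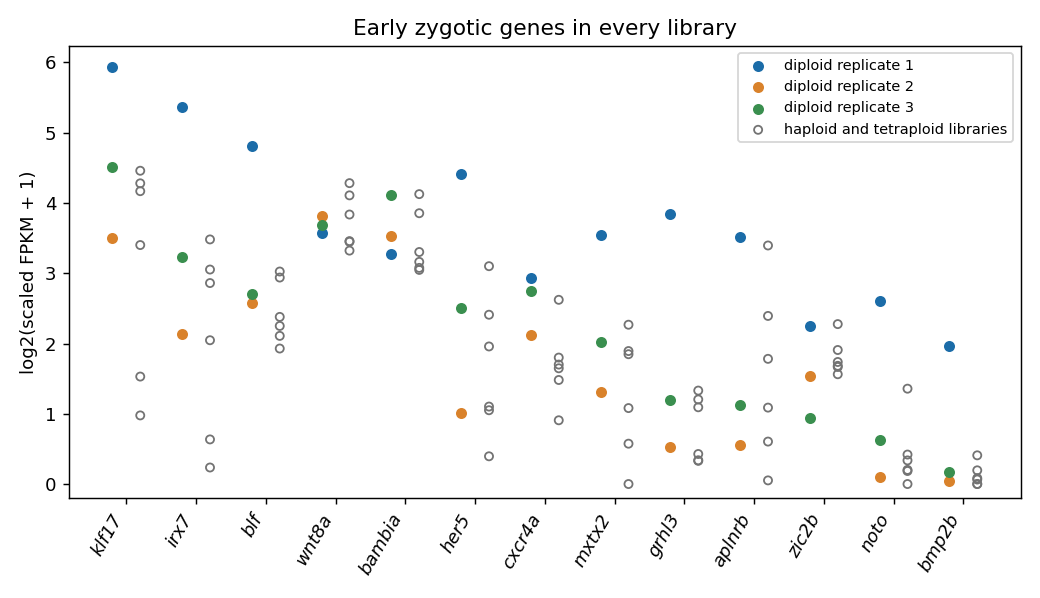
Levels of the 13 early zygotic genes with a diploid mean of at least 1, as log2(scaled FPKM + 1) on the vertical axis, with the 3 diploid libraries left and the 6 haploid and tetraploid libraries right of each gene. Diploid replicate 1 is the highest diploid for 11 genes; wnt8a and bambia are the exceptions.

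Few marker genes of differentiated tissues could be read, since most lie unmeasured in the second run, and those measured were low. The 2 measured of 6 blood markers summed to at most 0.189 scaled FPKM in any diploid library, the 2 measured of 6 nervous system markers to at most 0.576, and the 4 measured of 5 notochord and endoderm organ markers to at most 1.06. Of these markers, fabp1a and the locus that joins hbbe1.1 with hbbe1.2 and hbbe1.3 were at 0 in all 3 diploids, and sox10 did not exceed 0.114. Others were above 0, with snap25a at 0.223, 0.557 and 0.446 in replicates 1, 2 and 3. In replicate 3, ins was at 0.946 and alas2 at 0.189. The 2 measured of 9 muscle markers summed to 2.37, 6.13 and 4.03, through tnnt3a, a fast troponin T gene with 2.22, 5.43 and 3.44. The other measured muscle gene, acta1b, averaged 0.485. Against these, the 3 measured of 10 germ plasm markers summed to 500.4, 460.4 and 484 in diploid replicates 1, 2 and 3.

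Many zebrafish genes exist as a and b copies from the teleost genome duplication, and the 2 copies often differed in level in the diploid libraries. Both copies were measured in 624 pairs matched by symbol, and in 297 pairs their diploid means summed to at least 5 scaled FPKM. In 278 of the 297, the same copy was higher in all 3 libraries. In 129 pairs the copies differed by at least 10-fold, including 16 with a copy at 0 in every diploid library, and in 68 they were within 2-fold. The higher copy was the a copy in 159 pairs and the b copy in 138. Closely alike copies can exchange reads, which would bring their values together.

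Among the splicing factors, srsf7a had 438, 493 and 512 scaled FPKM in diploid replicates 1, 2 and 3 and srsf7b had 1.06, 0.911 and 1.30. fth1a, ferritin heavy chain, averaged 356 ± 23.9 and fth1b 2.63 ± 0.748 (SD, n = 3 each). hmgb3b, a high-mobility-group protein, averaged 274 ± 34.7 and hmgb3a 1.39 ± 0.640. The glycolytic pyruvate kinase gene pkma averaged 58.0 ± 11.7 and pkmb 0.0103 ± 0.0179. Balanced pairs included the H2A.Z genes h2afva and h2afvb, and eif4g2a (142 ± 14.7) and eif4g2b (132 ± 1.78), translation factors of the eIF4G family, in both of which the higher copy changed between libraries. These pairs were named after their values were seen.

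The spread between the 3 diploid libraries was small for most loci. The median SD of log2(scaled FPKM + 1) was 0.179 over the 5898 loci, and 86.2% of loci had their highest value within 2-fold of their lowest, so 13.8% exceeded it. By level, the median SD was 0.244 for means of 1 to 5, 0.196 for 5 to 20, 0.139 for 20 to 100 and 0.114 for 100 to 1000. It was 0.209 for the 17 loci above 1000, of which 8 are mitochondrial. Over the 5871 loci tested below, the diploid median SD of 0.177 compares with 0.206 for the haploid and 0.307 for the tetraploid libraries, the last with tetraploid replicate 3 among them. The intervals that the authors deposited did not overlap for at least 1 pair of diploid libraries at 3314 of 5898 loci, or 56.2%. At those loci the libraries differed by more than the deposited intervals.

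The steadiest loci with a single gene name and a mean of at least 20 belonged to several classes. aldh18a1, which makes the proline precursor, had 40.3, 40.1 and 40.1 scaled FPKM in diploid replicates 1, 2 and 3. srsf6a, a splicing factor, had 482, 480 and 479, and tubgcp3, of the microtubule-nucleating gamma-tubulin complex, had 39.4, 39.9 and 39.6. lef1, a Wnt effector, had 34.2, 34.5 and 34.3. The others of the 10 were dirc2, fbxl2, pa2g4b, pip4k2aa, tomm22 and bckdha. They were chosen for this agreement, which is a description.

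The least steady loci were taken among those with a single gene name and a mean of at least 5, with placeholder symbols left out. They included 3 early zygotic genes, grhl3, her5 and irx7, and short loci such as dut. dut, the dUTPase gene, was listed at 72.6, 0 and 0 scaled FPKM, but its locus spans 101 bases (chromosome 18, 5616256 to 5616356) and the value of 72.6 has an interval like that of 2 fragments. med11, a Mediator subunit, had 29.1, 18.0 and 0, and psme1, a proteasome activator subunit, had 2.04, 0.173 and 49.5. A U1 snRNA locus on chromosome 4, nme2b.2, aldh3a1 and samm50l made up the 10. At all of them but dut, the deposited intervals of at least 1 pair of diploid libraries did not overlap, as at 56.2% of the 5898 loci. Of the loci with placeholder symbols, the 77-base mitochondrial locus above and BX294165.2, at 37.0, 31.6 and 0, spread as widely. In all, 17 loci were listed at 0 in a diploid library while another diploid library had at least 5, and an exact 0 can be a failed estimate.

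**Figure D5:**
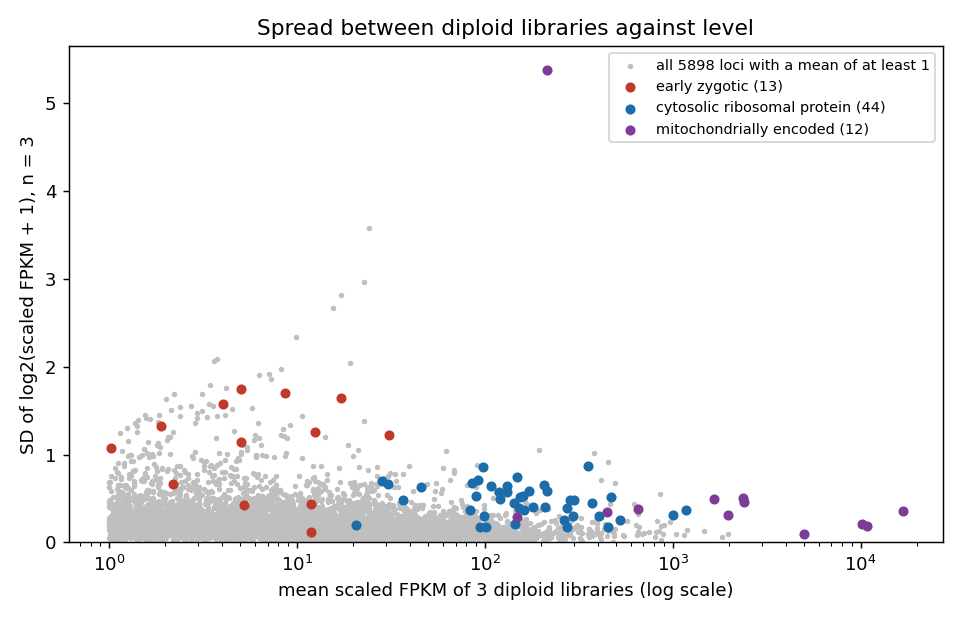
Spread between diploid libraries, as the SD of log2(scaled FPKM + 1) over 3 libraries (vertical axis), against mean scaled FPKM (horizontal axis, log scale) for 5898 loci. Grey points are all loci; most early zygotic genes (red) and many ribosomal protein genes (blue) lie above the bulk at their level, and the mitochondrial point above 5 is the 77-base locus listed at 0 in 2 libraries.

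Members of some classes moved together between diploid libraries. Of 44 cytosolic ribosomal protein loci, 43 were highest in diploid replicate 2, where 35.1% of all loci were, and the exception, faub, was highest in replicate 1. On the log2 scale the median ribosomal locus deviated from its diploid mean by 0.51 in replicate 2, by -0.19 in replicate 1 and by -0.30 in replicate 3. rps12, of the small subunit, had 255, 613 and 192 scaled FPKM, rps20 had 374, 681 and 357, rpl32 had 281, 512 and 323, and rpl11 had 230, 402 and 223. The largest relative excess among the members named here was that of rps12. The class took 3.35%, 4.78% and 3.14% of the summed FPKM, against 2.66% to 3.58% in the other 6 libraries. Without replicate 2, the diploid mean share was 3.25%, against 3.76% with it.

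Ribosomal protein messages are short, and the length of the listed span moved slightly with library over all loci. In the shortest of 5 equal bins of loci by span, up to 6.74 kilobases, the median locus deviated from its diploid mean by 0.05 in replicate 2 on the log2 scale. In the longest bin, from 48.6 kilobases, it deviated by -0.05. The listed span is that of the locus on the genome, 70.0 kilobases for rpl17, so these bins do not order loci by message length. Mitochondrial loci and, less evenly, histone loci shared the direction of the ribosomal loci, with 10 of 12 and 15 of 23 highest in replicate 2. The part of span, or of the handling of short transcripts, in the ribosomal values was not tested.

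Replicate 3 was the highest library for 41 of 66 developmental transcription factor loci, where 33.3% of all loci were, with the median such locus 0.141 above its diploid mean on the log2 scale. Spliceosome, hnRNP, membrane traffic and translation factor loci did not lean to a library by more than 0.05 at the median. By count, though, 29 of 59 spliceosome loci were highest in replicate 2, against 35.1% of all loci. So were 34 of 70 nuclear oxidative phosphorylation loci and 18 of 38 lysosome and autophagy loci. Because all 3 diploid libraries hold the same cross and labelled stage, these patterns are differences between libraries, each of them a single sample.

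Diploids were set against the 6 haploid and tetraploid libraries to ask what was particular to the control transcriptome. In limma's test on log2(scaled FPKM + 1) with Benjamini-Hochberg adjustment, 0 of 5871 loci passed an adjusted p of 0.05, which is 0% of those tested. At an unadjusted p under 0.05 there were 99, or 1.69%, and the smallest adjusted p was 0.901. All 3 diploids lay above the other 6 libraries at 39 loci (0.664%) and below them at 30 (0.511%), together 1.18%. The median difference over all loci was 0.01. In the same test on simulated data, 73 of 100 loci changed by 1 on the log2 scale and 96 of 100 changed by 2 were called. The simulated errors were independent, normal and equally wide in every library, without a library that stands apart as tetraploid replicate 3 does. These rates can therefore overstate what the test would find in the real libraries.

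Since fewer than 5 loci passed, the 5 named genes with the smallest p in each direction are given as values. arpc3, a subunit of the actin-nucleating Arp2/3 complex, had 22.8, 20.6 and 24.1 scaled FPKM in diploid, against 12.0, 16.1 and 20.6 in haploid and 11.6, 9.17 and 11.4 in tetraploid libraries. The highest haploid value lay just above the lowest diploid one. rarga, a retinoic acid receptor gene, had 2.77, 2.58 and 2.83 in diploid, against 4.87, 3.91 and 3.70 in haploid and 5.81, 7.86 and 6.12 in tetraploid libraries, with no overlap. Its difference was -0.74 on the log2 scale (SE 0.159), and its adjusted p in limma was 0.999. zbtb47a and bloc1s2 also did not overlap, zbtb47a at 2.53 ± 0.182 in diploids and 1.42 ± 0.376 in the other 6 libraries and bloc1s2 at 3.98 ± 0.309 and 7.19 ± 2.12. ankdd1a, gata2b and tspan13a had higher diploid means, vgll4b, ccpg1 and dut lower ones, and all overlapped. ankdd1a had 14.6, 15.3 and 15.7 in diploid, against 15.4, 18.1 and 18.7 in haploid and 5.29, 5.45 and 4.25 in tetraploid libraries. Only its tetraploid values lay below all 3 diploid ones. gata2b was at 6.12 ± 4.07 in diploids and 1.18 ± 1.5 in the other 6 libraries. tspan13a was at 6.27 ± 2.27 and 3.35 ± 1.32. vgll4b was at 0 in all 3 diploids, against 3.77 ± 2.8. ccpg1 had 1.61, 0.842 and 0.85, against 1.98 ± 0.318. dut had 72.6, 0 and 0, against 50 ± 19.2.

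Of the 11 early zygotic genes tested, none passed. klf17 differed by 1.51 (SE 0.730, unadjusted p 0.0662, adjusted p 0.999 in limma) and cxcr4a by 0.91 (SE 0.302, unadjusted p 0.0139, adjusted p 0.999) on the log2 scale. The median difference of the 11 was 0.92, with 9 of 11 positive, against 0.01 over all loci, where 3037 of 5871 were positive. grhl3 reached a mean of 1 over the 9 libraries only through diploid replicate 1, at 13.3 scaled FPKM, so the filter favoured its sign. klf17, irx7, blf, her5, grhl3, mxtx2, aplnrb and cxcr4a were each highest, of all 9 libraries, in diploid replicate 1. Without that replicate, the median was 0.29 with 8 of 10 positive, and the diploid mean share of the class was 0.0252%, within the range of the other 6 libraries. The median difference of the 44 ribosomal protein loci was 0.25, with 40 of 44 positive, was 0.13 with library weights, and without diploid replicate 2 was 0.04, with 24 of 44 positive. That of the 27 hnRNP and Y-box loci was -0.09, with 23 of 27 negative, and -0.02 with 15 of 27 negative on unscaled FPKM, where the median over all loci was 0.07. No locus of these 3 lists passed.

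The shares of the 29 classes were compared between the 3 diploids and the other 6 libraries with an exact two-sided permutation test. With 84 arrangements it can reach a p of 0.0238 at the smallest. After adjustment over the 29 classes, a single class at that p could not pass alone. Many classes would have to reach it together, so the lack of a call does not show that the shares were alike. The smallest p was 0.262, for early zygotic genes, and every adjusted p was 1. Without the mitochondrial chromosome, the smallest adjusted p was 0.909. Mitochondrial loci took 19.9% ± 1.71 in diploids (SD, n = 3) and 20.2% ± 3.94 in the others (SD, n = 6). Germ plasm and oocyte genes took 1.64% ± 0.212 in diploids and 1.88% ± 0.323 in the others. That difference was larger than the diploid SD and smaller than the SD of the others.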

How the data were processed

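Per the submitters' processing notes, the authors used FastQC, Trim Galore, HISAT2, Cufflinks and Cuffdiff with GRCz10. Which versions, which annotation and which strand option they used is not given in the sources used here. The authors deposited 1 FPKM table per library, with interval bounds and a status per locus, and 2 Cuffdiff tables of pooled FPKM per ploidy. Locus starts were moved to 1-based positions. FPKM were scaled by median-of-ratios factors over 4957 loci. Loci with a status other than OK in any library were left out. An interval bound was read as 2 standard deviations of counting error. It is not a read count, and no count test was run.

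Classes were assigned by symbol, and 98 symbols that a name pattern had misplaced were moved by name. Diploids were tested against the mean of haploids and tetraploids with limma 3.58.1 in R 4.3.3 (log2, pseudocount 1, mean-variance trend, all 9 libraries, loci with a mean of at least 1 over 9 libraries). A difference on this scale understates changes of low loci. Class shares used an exact permutation test in SciPy 1.17.1. On data simulated for the limma comparison, 8 of 5671 unchanged loci were called. Antisense and overlapping transcription could not be separated, and 1122 first-run loci at or above 1 (19.2%) overlap a second-run locus.

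Genes named are the 20 most abundant nuclear loci, mitochondrial loci, the leading members of each class, members of the early zygotic, activator and germ plasm lists, the 10 most and 10 least variable loci with a single gene name, and the called loci or, with fewer than 5, the 5 with the smallest p per direction; ccne1, cdt1, hnrnpaba, ctsba, some ribosomal protein genes, creld1b, lysmd4, BX294165.2 and duplicate pairs were added after their values were seen. The members and lists were chosen with earlier results of these data known. Some members of the activator and enveloping layer lists are not reported here. Reference sequences were not used here.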

Additional observations from a re-analysis of the deposited data

How the results depend on the processing

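No paired analysis was possible because the labels carry no number that pairs libraries. The count of loci with a diploid mean of at least 1 stayed within 1.5 times of its value under every alternative run (unscaled FPKM, all listed loci, loci with several symbols left out, each diploid library left out), as did the median spread (unscaled FPKM, quantile normalization, pseudocounts of 0.1 and 5, a mean of at least 5, each diploid library left out). The number of loci holding 50% of the summed FPKM was 434 without the mitochondrial chromosome and 222 to 253 with a diploid library left out. Loci whose deposited intervals did not overlap numbered 3314, and 1695 to 2365 with a diploid library left out, 1695 without replicate 2, 1980 without replicate 3 and 2365 without replicate 1, since 2 libraries offer fewer pairs. Limma called 0 loci under 16 of 18 alternatives. Without a filter it called 4, apoa2, elovl8a, rhoj and ogfr, all with scaled FPKM under 1 in every library. Leaving out a library in turn gave 0 to 1 calls, and the 1, without diploid replicate 1, was dut, whose remaining diploid values are both 0. No class passed under any of 13 alternatives, in none of which a single class could have passed alone after adjustment. With a diploid library left out, too few arrangements remain for any p under 0.05, so those runs could not call a class. With a diploid library left out, the mitochondrial share was 19.0% to 20.7%. None of the 29 class shares moved by more than 1 SD. Dropping 1 of 3 libraries cannot move their mean that far, so this decides nothing. Leaving out the mitochondrial chromosome raised 27 of 28 by more than 1 SD, since it removes part of the total. Leaving out loci with several symbols moved 23 of 29 class shares by more than 1 SD. The mitochondrial share was then 12.4%, against 19.9%, since joint loci such as that of mt-atp6, mt-atp8 and mt-co3 were left out.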

Other observations

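Chromosome 4 had more measured loci than any other chromosome, and a smaller part of them reached a diploid mean of 1. Its 192 loci at that level lay within the 160 to 355 of the other nuclear chromosomes, which had 374 to 862 measured loci. Haploid and tetraploid libraries were not examined for this. Of its 1473 measured loci, 13.0% had a mean scaled FPKM of at least 1, with a median of 5.65 among them, where the other 24 nuclear chromosomes had 34.7% to 49.1% and medians of 7.54 to 16.5. The median listed span was 21.6 kilobases for means of 1 to 5, 19.4 for 5 to 20 and 15.5 for 20 to 100. It was 10.2 for 100 to 1000 and 1.55 for the 17 loci above 1000, of which 8 are mitochondrial. The Spearman correlation of span with level was weak, at -0.161 over 5898 loci. Measured loci below 1 had a median span of 5.93 kilobases, and 41.5% of them carry a placeholder symbol, against 14.2% of those at or above 1. cxcr4b, a chemokine receptor that guides germ cells, was not in the early zygotic list and had 18.7, 2.59 and 4.13 scaled FPKM in diploid replicates 1, 2 and 3, and 2.97 ± 2.24 in the other 6 libraries. It was named after its values were seen. ddit4, a stress-responsive inhibitor of mTOR signalling, had 87.7, 364 and 134 in diploids and 186 ± 126 in the other 6 libraries, and was also named after its values were seen.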
